A study of Mus musculus with 2 samples.

Results

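Reelin and the genes that receive its signal are described here in hippocampal nuclei of a tauopathy mouse model with and without *Zbp1*. The 4 genes were taken by symbol from the gene table of the count matrices (4 of 32285 genes), and all 4 had counts in both libraries. They are *Reln* (ENSMUSG00000042453, mm10 chromosome 5, 21884454 to 22344702, minus strand), *Vldlr* (ENSMUSG00000024924, chromosome 19, 27216484 to 27254231, plus strand), *Lrp8* (ENSMUSG00000028613, chromosome 4, 107802261 to 107876840, plus strand) and *Dab1* (ENSMUSG00000028519, chromosome 4, 103619359 to 104744844, plus strand). The set was drawn up because *Reln* had been seen to be higher in neurons of the PZKO library, so that difference is given as a description. The question is which neurons carry it, and what the receptors and the adaptor do in the same nuclei.

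The PS19 line carries a mutant human tau transgene under the mouse prion promoter, which is active in neurons and in other cells. Both libraries came from snap-frozen hippocampi of males aged 9 months that carried 1 copy of this transgene. The PS19 library was from PS19+/- *Zbp1*+/+ mice and the PZKO library from PS19+/- *Zbp1*-/- mice, whose *Zbp1*, a sensor of Z-form nucleic acids, was deleted in the germline and so in every cell type. Each genotype is 1 pooled library of single-nucleus RNA, mice without the transgene are not analysed here, and no animal can be followed in the counts. There is therefore no replicate, no test between genotypes was made, and genotype, pool, dissection and library cannot be told apart. Intervals below are exact 95% intervals of counting error only.

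Reelin is a large secreted glycoprotein. In the embryo it is released by Cajal-Retzius cells at the surface of the cortex and hippocampus and guides the layering of neurons, and in the adult brain it comes mainly from interneurons and from some excitatory neurons of the entorhinal cortex. It binds the receptors VLDLR and ApoER2, the product of *Lrp8*, on the receiving cell. Both receptors pass the signal to the adaptor *Dab1*, which is phosphorylated by *Src* family kinases, and the pathway is known to act on synaptic plasticity and on kinases that modify tau.

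There were 11469 nuclei from PS19 and 10920 from PZKO mice, with medians of 5642 and 8343 UMIs (unique molecular identifiers, each counting 1 captured RNA molecule). After filtering and doublet removal 9590 and 9307 nuclei were kept, in 31 clusters, and unnamed clusters held 4.23% and 3.49% of them. Among the barcodes, 47 occurred in both libraries. Excitatory nuclei had medians of 18847 and 28204 UMIs, and inhibitory nuclei 19983 and 29869, so the PZKO library was the deeper one throughout. *Zbp1* had 92 UMIs in PS19 and 38 in PZKO nuclei (0.913 and 0.250 CPM, UMIs of the gene per 1000000 UMIs of all genes in the nuclei considered). The sources used here do not give the deleted part of the gene relative to the 3′ reads, so this checks the labels only in part.

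The levels of classes and clusters below are in this unit, CPM. *Reln* was by far highest in Cajal-Retzius-like nuclei, intermediate in inhibitory neurons and low in excitatory neurons. Only in the last of these did its level differ between the libraries by more than 1.5-fold. The cluster of Cajal-Retzius-like nuclei (28 in PS19, 30 in PZKO) was recognised by markers that do not include *Reln*. The highest of these were *Trp73* at 840 and 995 CPM, *Cacna2d2* at 676 and 812 CPM and *Ebf3* at 413 and 608 CPM. The others were *Lhx1* (197 and 182 CPM), *Nhlh2* (105 and 148 CPM), *Lhx5* (59.1 and 60.8 CPM), *Ebf1* (13.1 and 52.1 CPM) and *Calb2* (19.7 and 4.34 CPM). In these nuclei *Reln* was at 12126.5 CPM in PS19 (11580 to 12692) and 12182 CPM in PZKO (11735 to 12642), a log2 ratio of PZKO over PS19 of 0.01 (-0.08 to 0.09). Every nucleus of the cluster held at least 1 *Reln* UMI in both libraries. The cells that are the classical source of reelin thus had the same level within counting error, although scaling by edgeR TMM factors put the log2 ratio at 0.14.

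In inhibitory neurons (554 PS19 nuclei, 614 PZKO nuclei) *Reln* was at 408 CPM in PS19 and 462 CPM in PZKO, a log2 ratio of 0.18 (0.13 to 0.23). In excitatory neurons (2843 and 3095 nuclei) it was at 9.48 CPM in PS19 and 30.5 CPM in PZKO, where the log2 ratio was 1.68 (1.56 to 1.81). The PS19 value of excitatory neurons was within the range of 6.44 to 10.8 CPM seen in oligodendrocytes, microglia and oligodendrocyte precursors (OPCs) of both libraries, cells that should lack the gene. At the level of the whole class, excitatory *Reln* in PS19 was thus no higher than in these glia, and the PZKO value was above their range. Free RNA, released by broken cells, is captured with nuclei of any type. The glial nuclei were shallower, so their CPM does not give the level of free RNA in excitatory nuclei. Within the class, PS19 CA3-like and CA1-like nuclei were lower, at 1.33 and 1.67 CPM. In PZKO, vascular leptomeningeal cells (VLMCs) were at 23.8 CPM (16.2 to 33.8), which overlaps the excitatory interval, against 1.86 CPM in PS19. The part of free RNA in the class values was not tested. Beside these values, the 8 Cajal-Retzius markers summed to 15.6 CPM in PS19 and 24.3 CPM in PZKO excitatory nuclei, and the 7 inhibitory markers to 55.1 and 39.4 CPM, with none of either list at 0. Leaving out excitatory nuclei with a UMI of *Gad1*, *Gad2* or *Trp73* gave a log2 ratio of 1.67 (1.51 to 1.82).

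**Figure D1:**
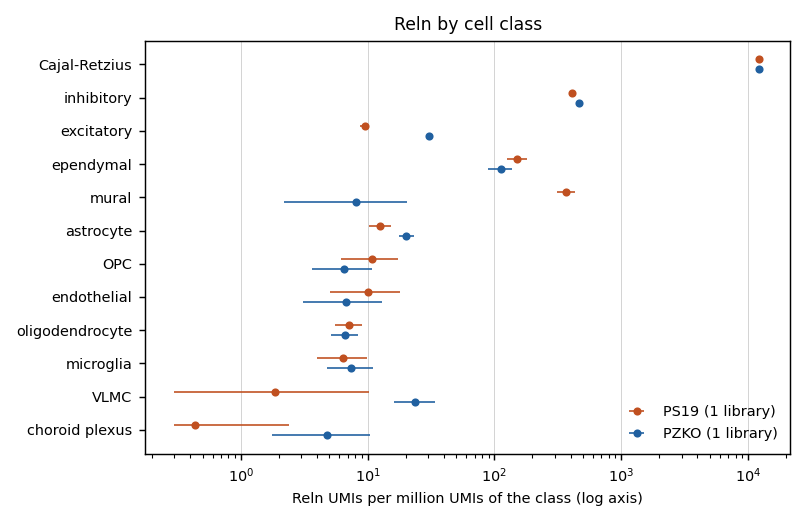
*Reln* in CPM of each cell class (log axis) in the PS19 library (orange) and the PZKO library (blue), with exact 95% Poisson intervals, where bars below 0.3 are cut off at 0.3. The points of the Cajal-Retzius class stand at 12126.5 and 12182, those of the excitatory class stand at 9.48 and 30.5, and the PS19 mural point rests on 2 nuclei.

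Of the *Reln* UMIs in neurons, 7151 in PS19 and 15128 in PZKO, inhibitory neurons held 66.1% (65.0 to 67.2) in PS19 and 61.7% (60.9 to 62.5) in PZKO. Cajal-Retzius-like nuclei held 25.8% and 18.5%. Excitatory neurons held 8.08% (7.46 to 8.74) in PS19 and 19.8% (19.1 to 20.4) in PZKO. Interneurons held most of the *Reln* UMIs in both libraries, and the excitatory share was higher in PZKO.

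Within the inhibitory class, neurons were clustered again on their own, and 11 of 19 sub-clusters had at least 20 nuclei in each library. Of these, *Reln* was highest in the *Lamp5*-like sub-cluster led by *Kit* and *Ndnf* (*Lamp5* marks neurogliaform cells), with 2428 CPM in 33 PS19 nuclei (2301 to 2560) and 2913 CPM in 34 PZKO nuclei (2802 to 3026). *Sst*-like nuclei, the somatostatin interneurons, followed with 919 CPM in PS19 and 1012 CPM in PZKO over 3 sub-clusters. Nuclei led by *Hapln1* and *Pde11a* were at 431 and 703 CPM, and *Cck*-like nuclei at 415 and 412 CPM. *Pvalb*-like nuclei, the parvalbumin basket and chandelier cells, were lowest of the 5 named subtypes, at 16.6 CPM in PS19 and 18.3 CPM in PZKO. The order *Lamp5*-like, *Sst*-like, *Cck*-like, *Vip*-like and *Pvalb*-like held in both libraries, with no overlap of intervals between neighbours.

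The inhibitory sub-clusters did not move together. The *Sst*-like sub-cluster led by *Lypd6* and *Sst* was lower in PZKO, from 1294 CPM in 42 nuclei to 1016 CPM in 48 nuclei (log2 ratio -0.35, -0.46 to -0.23). The *Sst*-like sub-cluster led by *Pappa* and *Zfpm2* was higher, from 574 to 720 CPM (log2 ratio 0.33, 0.17 to 0.48). The remaining *Sst*-like sub-cluster, led by *Lama4* and *Unc13c*, was at 944 and 1299 CPM, but with only 16 PS19 nuclei against 42 PZKO nuclei. Together the *Sst*-like nuclei had a log2 ratio of 0.14 (0.06 to 0.22). The 2 sub-clusters of *Pvalb*-like nuclei and the *Cck*-like one had intervals that span 0. Over all inhibitory sub-clusters, levels within them gave 75.8 CPM of the class difference of 53.5 CPM, and their shares of UMIs gave -22.3 CPM.

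The largest upward ratios in the inhibitory class were in sub-clusters with low *Reln*. *Vip*-like nuclei, most of which inhibit other interneurons, were at 50.1 CPM in PS19 and 129 CPM in PZKO, with a log2 ratio of 1.37 (0.83 to 1.95), and 5 nuclei held 75.8% and 74.9% of these UMIs. A sub-cluster led by *Stac* and *Prdm16* was at 8.72 and 105.9 CPM, where 3 of the 44 PZKO nuclei were enough to hold 50% of the UMIs. One led by *Cpa6* and *Ano2* was at 77.2 and 175 CPM. These last 2 belong to the inhibitory cluster led by *Prdm16* and *Ankfn1*, which matched no interneuron list and in which *Reln* was at 75.5 CPM in PS19 and 136 CPM in PZKO (log2 ratio 0.85, 0.64 to 1.07). The make-up of this cluster differed between the libraries. Its sub-cluster led by *Rmst* and *Otx2os1* had 13 PS19 and 61 PZKO nuclei and the one led by *Rgs9* and *Rarb* 23 and 1, of 132 and 161 in all. For the 4 genes, mix and level per cell within it cannot be told apart.

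**Figure D2:**
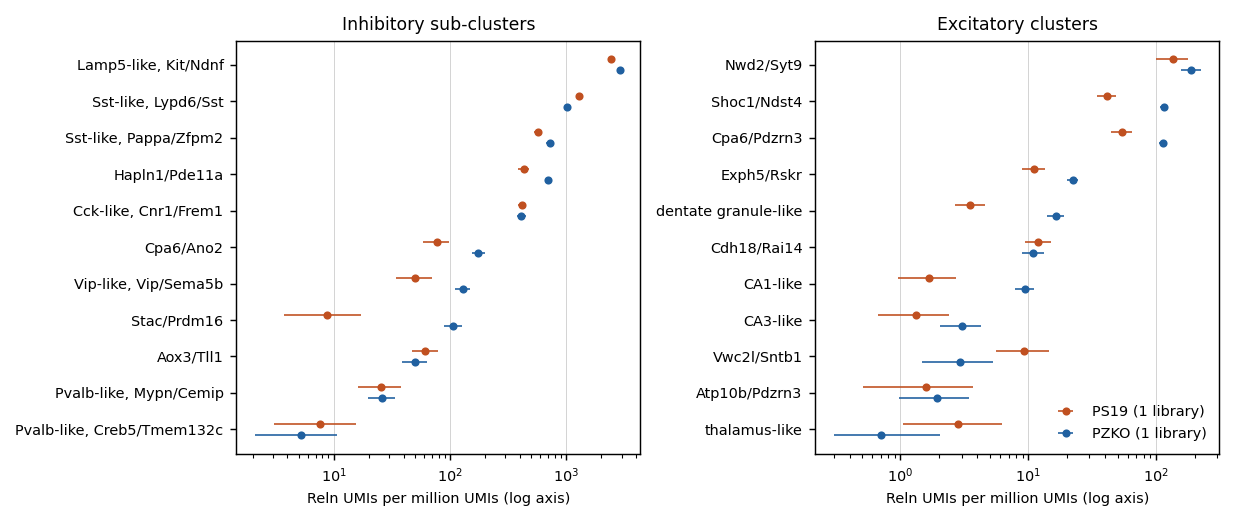
*Reln* in CPM (log axes) in inhibitory sub-clusters with at least 20 nuclei in each library (left) and in excitatory clusters (right), named by marker lists or by their leading genes, in PS19 (orange) and PZKO (blue) with exact 95% Poisson intervals, where bars are cut off at 1 on the left and 0.3 on the right. *Kit*/*Ndnf* nuclei stand above 2000 in both libraries and *Creb5*/*Tmem132c* nuclei below 10, while on the right 3 clusters exceed 100 in PZKO.

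Excitatory neurons fell into 11 clusters, and most of the *Reln* difference lay outside those named dentate granule-like, CA1-like or CA3-like. The clusters led by *Cpa6* and *Pdzrn3* (93 PS19 and 246 PZKO nuclei) and by *Shoc1* and *Ndst4* (106 and 181 nuclei) matched no subtype list. Their best lists were superficial cortex (score 0.63) and subiculum (0.57), below the 0.8 needed, so their place in the tissue is not settled. The *Cpa6*/*Pdzrn3* cluster held 18.3% of the excitatory *Reln* UMIs in PS19 and 30.9% in PZKO, the *Shoc1*/*Ndst4* cluster 25.1% and 33.4%. In the *Cpa6*/*Pdzrn3* cluster *Reln* was at 53.6 CPM in PS19 (43.9 to 64.9) and 112 CPM in PZKO (105 to 119), a log2 ratio of 1.06 (0.77 to 1.36). In the *Shoc1*/*Ndst4* cluster it was at 40.9 CPM (34.5 to 48.2) and 114 CPM (107 to 122), a log2 ratio of 1.48 (1.23 to 1.74). They accounted for 36.6% and 37.1% of the difference between the libraries in the CPM of the class. The 5 nuclei with most *Reln* held 82.1% of the PS19 and 49.1% of the PZKO UMIs of the *Cpa6*/*Pdzrn3* cluster, and without these 5 of each library its log2 ratio was 2.49, a setting added after the data were seen. For the *Shoc1*/*Ndst4* cluster it was then 1.85.

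The cluster led by *Exph5* and *Rskr*, which includes the superficial cortex-like nuclei described below, was at 11.1 CPM in 335 PS19 nuclei and 22.1 CPM in 633 PZKO nuclei (95% interval of the log2 ratio 0.68 to 1.33), and accounted for 15.1% of the difference. Without nuclei that held a UMI of *Gad1*, *Gad2* or *Trp73* its log2 ratio was 0.35, with an interval that spans 0 (-0.02 to 0.74). Without the 5 richest nuclei of each library it was 0.64 (0.25 to 1.04). The small cluster led by *Nwd2* and *Syt9* had the highest excitatory level, 135 CPM in 28 PS19 nuclei and 187 CPM in 26 PZKO nuclei, but its log2 ratio of 0.48 (-0.01 to 0.99) did not exclude 0. The cluster led by *Cdh18* and *Rai14* was at 11.9 and 10.9 CPM, a difference within counting error, but 5 nuclei held 87.5% of its PS19 UMIs, and without the 5 richest of each library the log2 ratio was 1.42. Of the 11 excitatory clusters, 6 had an interval above 0, 1 below 0 and 4 spanned it.

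In PS19 the clusters named for principal cells of the hippocampus stood below the range of *Reln* seen in glia. Dentate granule-like nuclei were at 3.52 CPM in 1009 PS19 nuclei and 16.3 CPM in 513 PZKO nuclei (log2 ratio 2.21, 1.77 to 2.68). This ratio rested on single nuclei, as 1 PZKO nucleus held 105 of the 182 UMIs and 5 nuclei held 90.1% of them. Without the 5 nuclei with most *Reln* of each library it was -0.22 (-1.16 to 0.67). CA1-like nuclei were at 1.67 and 9.40 CPM (log2 ratio 2.49, 1.74 to 3.34), where 5 nuclei held 73.5% of the PZKO UMIs, and without the 5 highest nuclei of each library the ratio was 1.25 (0.20 to 2.43). It was 0.54 (-0.08 to 1.18) with no doublet removal and 0.55 (-0.38 to 1.53) with separate clustering of the libraries. CA3-like nuclei had 11 UMIs in PS19 (1.33 CPM) and 31 in PZKO (log2 ratio 1.17, 0.14 to 2.31). The ratio was 2.98 with no doublet removal and 1.16 (-0.39 to 2.99) without the 5 highest nuclei. Thalamus-like nuclei had 6 and 3 *Reln* UMIs.

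Clustering the excitatory nuclei again on their own gave 30 sub-clusters and narrowed the difference to a few of them. The sub-cluster led by *Cpa6* and *Gpc5*, in which *Reln* was itself among the leading genes although it had been left out of the clustering, had 34 PS19 nuclei at 159 CPM (131 to 192) and 75 PZKO nuclei at 329.9 CPM (308 to 353), a log2 ratio of 1.05 (0.76 to 1.35). The sub-cluster led by *L3mbtl4* and *Qrfpr* had 42 PS19 nuclei at 82.5 CPM (68.6 to 98.4) and 83 PZKO nuclei at 173 CPM (161 to 186), a log2 ratio of 1.07 (0.79 to 1.36). These 2 sub-clusters made up 58.2% of the difference. The best list of both was CA1 (scores 0.61 and 0.52), below the 0.8 needed for a name. In the superficial cortex-like sub-cluster led by *Enpp2* and *Stard8* the levels of 36.2 and 38.0 CPM had a log2 ratio of 0.07 (-0.31 to 0.47), but 87 PS19 nuclei stood against 222 PZKO nuclei, and it made up 7.20%. Layer 6b-like nuclei, led by *Ccn2* and *Fbxl7*, were at 22.8 CPM in 26 PS19 nuclei and 82.0 CPM in 35 PZKO nuclei.

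A sub-cluster led by *Pde11a* and *Ifit1*, most of whose nuclei lie in the CA1-like cluster, had 21 *Reln* UMIs in 130 PS19 nuclei and 317 in 183 PZKO nuclei (46.3 CPM) and made up 13.8% of the difference, and 12 of its PZKO nuclei held at least 10 *Reln* UMIs against 1 in PS19. The CA1-like cluster itself had 3 such nuclei in PZKO, so most of the 12 lay in its part outside that cluster. A sub-cluster led by *Dnah14* and *Bmpr1b* had 2 *Reln* UMIs in PS19 and 166 in PZKO, but 1 nucleus held 85 of them. The excitatory difference was thus carried partly by a larger share of UMIs from sub-clusters that hold *Reln* and partly by a higher level within sub-clusters. Over sub-clusters, 33.3% of the difference came from the mix, taken as shares of the UMIs of the class, and 66.7% from the level. The level part, 14.0 CPM of the class in all, includes sub-clusters that rest largely on 1 nucleus, such as the *Dnah14*/*Bmpr1b* one (1.44 CPM). It also includes 2.97 CPM from the dentate granule-like sub-cluster led by *Trpc6* and *Stxbp6*, which made up 7.47% of the difference. As given above, the ratio of dentate granule-like nuclei rested on single nuclei. With the same mean mix of the 11 clusters in both libraries the log2 ratio of the class was 1.15.

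**Figure D3:**
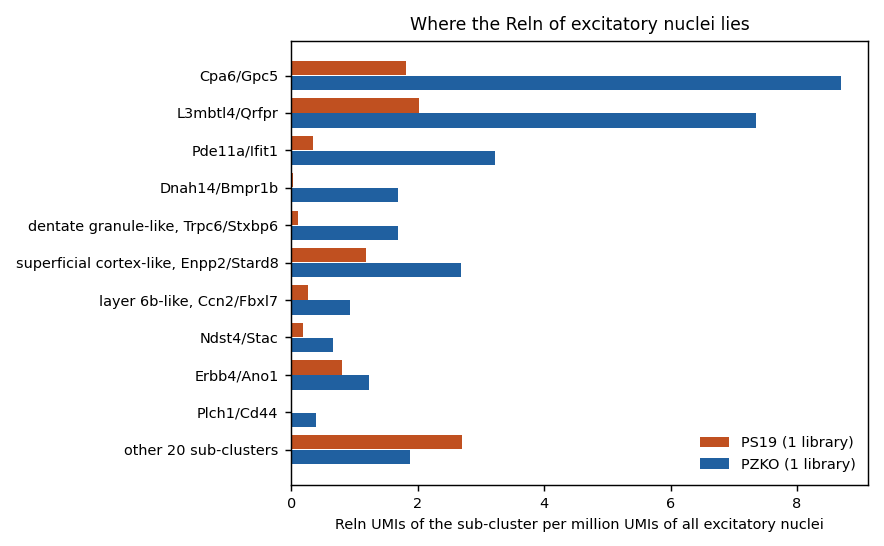
Contribution of excitatory sub-clusters to *Reln*, as *Reln* UMIs of the sub-cluster in CPM of all excitatory nuclei, in PS19 (orange bars) and PZKO (blue bars), for the 10 sub-clusters with the largest difference and the other 20 together. The bars of each library add up to 9.48 and 30.5, and the *Cpa6*/*Gpc5* and *L3mbtl4*/*Qrfpr* bars make up most of the difference.

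The mix of excitatory nuclei itself differed between the libraries. Of the excitatory nuclei, the dentate granule-like cluster made up 35.5% and 16.6% (PS19 first), the *Exph5*/*Rskr* cluster 11.8% and 20.5%, the *Cpa6*/*Pdzrn3* cluster 3.27% and 7.95%, and the *Shoc1*/*Ndst4* cluster 3.73% and 5.85%. Whether the pools held more tissue next to the hippocampus in PZKO or whether these cells differ in number cannot be told apart.

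Few nuclei held most of the *Reln* UMIs of excitatory neurons, 22 in PS19 and 28 in PZKO making up 50%. At least 10 *Reln* UMIs were found in 13 PS19 and 73 PZKO excitatory nuclei, whose medians of 29161 and 46320 UMIs exceeded those of the class. These nuclei had *Slc17a7*, the vesicular glutamate transporter, at 259 and 181 CPM and *Gad1* at 2.72 and 3.13 CPM, against 267 and 250 CPM of *Gad1* in inhibitory nuclei. *Slc17a7* was at 263 and 233 CPM in the other excitatory nuclei. As it is on the list that named these clusters excitatory, its level does not identify the source of the *Reln*. The *Reln*-rich nuclei differed from the other excitatory nuclei in *Trp73*, which was at 10.9 and 6.82 CPM in them and at 0.891 and 0.782 CPM in the others, against 840 and 995 CPM in Cajal-Retzius-like nuclei. Their *Gad2* was at 10.9 and 5.12 CPM, against 4.03 and 2.74 CPM in the others. Their *Gad1* went the other way, as the other excitatory nuclei had it at 12.6 and 7.63 CPM. The PS19 values of the *Reln*-rich nuclei rest on only 13 nuclei. Their median Scrublet doublet scores were 0.0539 and 0.0444, against 0.0163 and 0.0173 in the other excitatory nuclei. The part of doublets and free RNA in their *Reln* was not tested. *Dab1* in them was at 2073 and 2611 CPM, and *Vldlr* at 8.17 and 27.0 CPM.

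To compare shares at equal depth, each nucleus was thinned to a fixed number of UMIs. At 2000 UMIs a *Reln* UMI was found in 1.23% of PS19 (0.859 to 1.71) and 2.81% of PZKO excitatory nuclei (2.26 to 3.46), with 0 and 4 shallower nuclei left out, against 7.03% and 13.3% before thinning. Oligodendrocytes, at median depths of 3335 and 4261 UMIs, gave 1.47% and 1.34% at the same thinning, and microglia 0.852% and 1.29%, so the PS19 share was within the range of these glia. At 10000 UMIs, at least 3 *Reln* UMIs were held by 0.778% of PS19 excitatory nuclei (0.476 to 1.20) and 2.65% of PZKO ones (2.10 to 3.29), with 273 and 113 nuclei left out. In the *L3mbtl4*/*Qrfpr* sub-cluster this share was 9.52% (2.66 to 22.6) and 27.7% (18.4 to 38.6), and in the *Cpa6*/*Gpc5* sub-cluster 3 of 28 and 18 of 70 nuclei (10.7% and 25.7%), with intervals that overlap in both. In inhibitory neurons it was 33.5% (29.3 to 37.8) and 33.2% (29.4 to 37.1).

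Outside neurons, ependymal cells, which line the ventricles, were the only other class in which *Reln* was above 100 CPM in both libraries, 151 CPM in PS19 and 112 CPM in PZKO. Mural cells were at 370 CPM in PS19 and 8.05 CPM in PZKO. The PS19 value came from 2 of 112 nuclei, with 73 and 65 *Reln* UMIs, each of which also held 5 *Trp73* UMIs, and without them 5 UMIs remained. Astrocytes were at 12.6 and 20.2 CPM, close to the level of the other glia in PS19.

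The receptors had other patterns over cell classes. *Vldlr*, which binds reelin and apolipoprotein E particles, was highest in oligodendrocytes, at 147 CPM in PS19 (1367 UMIs) and 161 CPM in PZKO (1688 UMIs). Choroid plexus cells followed with 111 and 103 CPM, whose intervals did not overlap those of oligodendrocytes. Ependymal cells (77.9 and 62.6 CPM) and OPCs (69.3 and 83.6 CPM) came next and overlapped each other. Inhibitory neurons were at 48.2 and 42.2 CPM and excitatory neurons at 32.4 and 29.5 CPM, without overlap between these classes in either library. Microglia and astrocytes were lowest, at 8.89 and 9.26 CPM in PS19 and 10.7 and 11.02 CPM in PZKO.

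Among excitatory neurons *Vldlr* was highest in dentate granule-like nuclei, 43.1 CPM in PS19 and 43.3 CPM in PZKO, with intervals that overlap those of CA1-like nuclei at 38.3 and 40.1 CPM. They also overlap those of the cluster led by *Atp10b* and *Pdzrn3*, at 34.3 and 34.7 CPM. In PS19 alone they overlap those of the *Cpa6*/*Pdzrn3* cluster (39.0 CPM, and 32.2 CPM in PZKO) and the thalamus-like cluster (32.1 CPM, and 30.1 CPM in PZKO). *Vldlr* was lowest in the *Cdh18*/*Rai14* cluster at 14.1 and 14.2 CPM. The class had a log2 ratio of -0.13 (-0.22 to -0.05), but 10 of its 11 clusters had an interval that spans 0, and with the same mean mix of clusters the log2 ratio was -0.03. CA3-like nuclei were the exception, with 30.7 and 24.9 CPM (log2 ratio -0.30, -0.56 to -0.05). In the inhibitory cluster led by *Prdm16* and *Ankfn1* *Vldlr* went from 73.8 to 51.3 CPM (log2 ratio -0.52, -0.78 to -0.27), but the log2 ratio was -0.15 (-0.45 to 0.16) under a stricter filter on nuclei.

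*Lrp8*, which encodes the receptor ApoER2, was highest in ependymal cells, at 195 CPM in PS19 (165 UMIs) and 223 CPM in PZKO (171 UMIs). Choroid plexus cells were at 101 and 143 CPM and endothelial cells at 78.9 and 104 CPM. Inhibitory neurons were at 74.1 and 89.1 CPM, astrocytes at 61.1 and 72.0 CPM and excitatory neurons at 51.9 and 59.3 CPM, 3 classes that did not overlap in either library. Oligodendrocytes, which led for *Vldlr*, were near the bottom with 4.42 and 6.12 CPM. Among neurons the *Nwd2*/*Syt9* cluster stood highest, at 140 and 176 CPM.

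*Lrp8* was slightly higher in PZKO neurons. The log2 ratio was 0.19 (0.13 to 0.25) in excitatory and 0.27 (0.15 to 0.39) in inhibitory neurons. In 10 of 11 excitatory clusters the estimate was above 0, and in 3 of these, the dentate granule-like (54.4 to 66.7 CPM), *Exph5*/*Rskr* (49.0 to 59.9 CPM) and *Shoc1*/*Ndst4* clusters (48.0 to 59.9 CPM), the interval was too. Of the 3 inhibitory clusters the *Prdm16*/*Ankfn1* one had the highest ratio, from 53.8 to 84.0 CPM (log2 ratio 0.64, 0.38 to 0.91), with the different mix of its sub-clusters given above. The small *Lamp5*-like sub-cluster led by *Kit* and *Ndnf* (33 and 34 nuclei) was at 88.5 and 143 CPM (log2 ratio 0.69, 0.21 to 1.19). The main cluster named *Lamp5*-like (205 and 175 nuclei) also held the *Vip*-like and most of the *Cck*-like nuclei. Over all its nuclei the log2 ratio was 0.12 with an interval that spans 0 (-0.09 to 0.34).

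**Figure D4:**
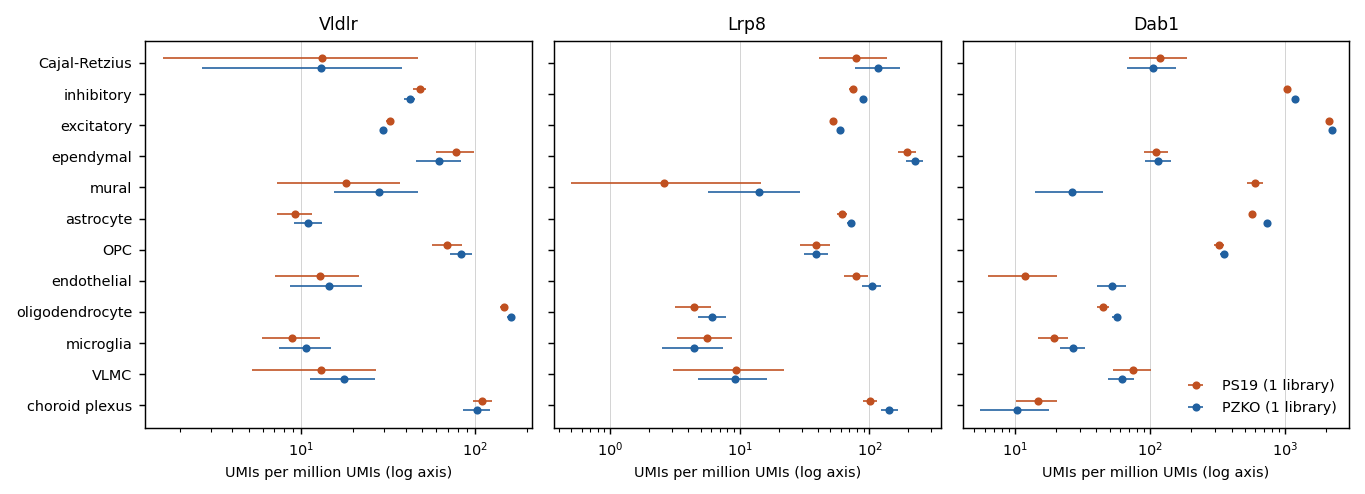
*Vldlr*, *Lrp8* and *Dab1* in CPM of each cell class (log axes, with a different range in each panel) in PS19 (orange) and PZKO (blue), with exact 95% Poisson intervals, where bars are cut off at 0.5. *Vldlr* is highest in oligodendrocytes at 147 and 161, *Lrp8* in ependymal cells at 195 and 223, and *Dab1* in excitatory neurons at 2093 and 2195.

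*Dab1*, the adaptor that both receptors recruit, was highest in excitatory neurons, at 2093 CPM in PS19 and 2195 CPM in PZKO. Inhibitory neurons were at 1034 and 1187 CPM, astrocytes at 564 and 731 CPM and OPCs at 324 and 350 CPM. Cajal-Retzius-like nuclei, the strongest source of *Reln*, were at 118 and 104 CPM. Among excitatory clusters dentate granule-like nuclei led with 3336 and 3939 CPM, and CA1-like nuclei were at 2572 and 2968 CPM. The CA3-like cluster, which includes most of a CA2-like sub-cluster, was at 1353 and 1761 CPM. The thalamus-like cluster (48.6 and 109 CPM) and the *Nwd2*/*Syt9* cluster (27.4 and 15.5 CPM) had little *Dab1*.

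The difference of *Dab1* between the libraries was masked by the mix of clusters. For the class as a whole the log2 ratio was 0.07 (0.06 to 0.08), yet 10 of 11 excitatory clusters had an interval above 0. The log2 ratio was 0.24 in dentate granule-like and 0.21 in CA1-like nuclei. It was 0.38 in the CA3-like cluster and 0.54 (0.50 to 0.58) in the *Exph5*/*Rskr* cluster, both of which pool several sub-clusters. The CA2-like sub-cluster, most of which lies in the CA3-like cluster, was at 2465 and 2810 CPM. The CA3-like sub-cluster alone was at 754 and 886 CPM, so the ratio of 0.38 can include a change of mix. With the same mean mix of clusters the log2 ratio was 0.24 for the class. All 3 inhibitory clusters had an interval above 0, although the *Prdm16*/*Ankfn1* one went from 0.46 to 0.13 under the stricter filter. In *Sst*-like nuclei *Dab1* went from 281 to 581 CPM (log2 ratio 1.05, 0.92 to 1.18). These nuclei pool 3 sub-clusters, of which the *Lama4*/*Unc13c* one had 16 PS19 and 42 PZKO nuclei, and mix and level were not split here. In *Cck*-like nuclei it was lower, from 2028 to 1781 CPM (log2 ratio -0.19, -0.27 to -0.11). In endothelial cells it went from 13 to 69 UMIs, with 65.2% of the PZKO UMIs in 5 nuclei.

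**Figure D5:**
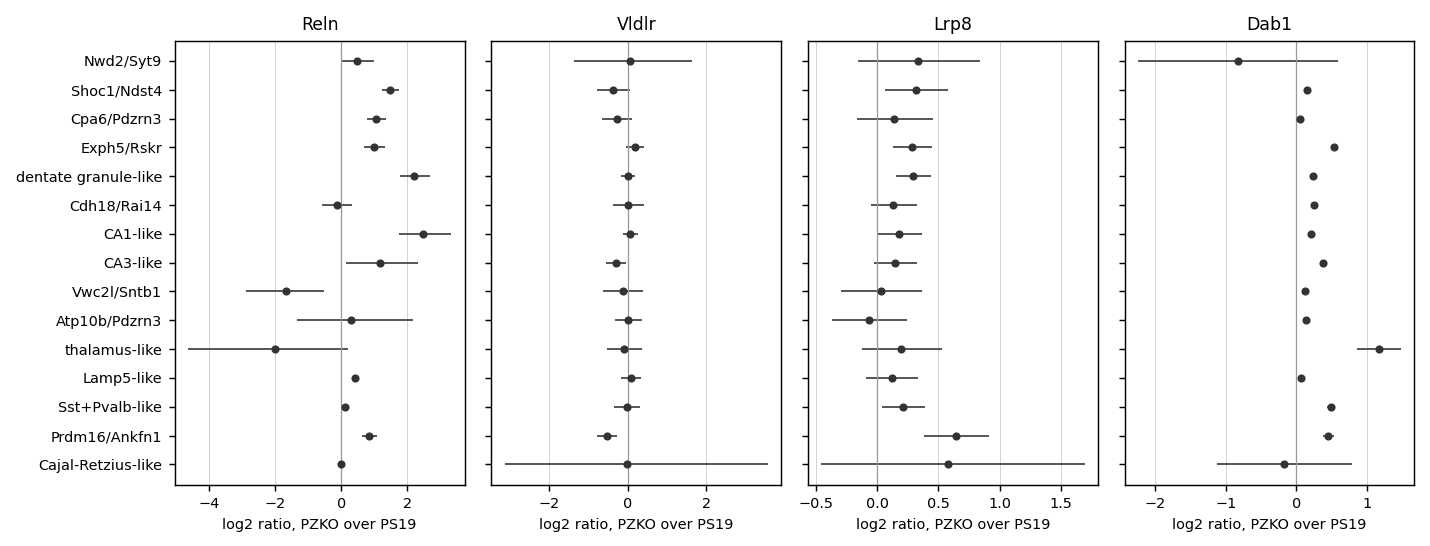
Log2 ratio of PZKO over PS19 for the 4 genes in the 15 neuronal clusters (11 excitatory, 3 inhibitory, Cajal-Retzius-like), with exact 95% conditional binomial intervals and a different range in each panel. *Reln* spreads from -2.02 to 2.49 over excitatory clusters, *Vldlr* intervals mostly span 0, and *Lrp8* and *Dab1* lie mostly above 0.

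Gene length moved with the ratios. In excitatory neurons the 581 measured genes of 300 kb and over had a median log2 ratio of 0.12, and the 11202 genes under 50 kb had -0.13. In inhibitory neurons the medians were 0.15 and -0.11. *Reln* spans 460 kb and *Dab1* 1125 kb, against 74.6 kb for *Lrp8* and 37.7 kb for *Vldlr*. The *Dab1* ratio of the excitatory class (0.07) lay between the quartiles of long genes in that class (-0.03 and 0.27). So did those of dentate granule-like and CA1-like nuclei. Those of the CA3-like and *Exph5*/*Rskr* clusters, which pool several sub-clusters, lay above them. The quartiles are of ratios of the whole class, which include the mix of clusters, and none were taken within clusters. The part of length in these ratios was not tested.

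The wider pathway differed little between the libraries. A gene was called higher or lower at a log2 ratio of at least 0.5 among genes with at least 100 UMIs in the class. In excitatory neurons 1 of 63 measured pathway genes was called higher and 4 lower, where 3.32% of all 16095 genes were called higher and 7.57% lower. In inhibitory neurons 1 of 57 was called higher and 6 lower, where 2.67% of 12648 genes were called higher and 7.52% lower. The medians of the pathway genes were -0.01 and -0.02, and those of all genes were -0.07 and -0.04. The pathway thus stood near the background in both classes. Of the 4 genes themselves, *Reln* alone passed this threshold in excitatory neurons and none did in inhibitory neurons.

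Among enzymes that cut reelin, *Adamts3*, its main inactivating protease, was at 78.3 CPM in PS19 and 74.4 CPM in PZKO excitatory neurons, and 1 of 6 measured enzymes was called higher. This was *Adamts5*, with 22 and 86 UMIs (log2 ratio 1.28, 0.59 to 2.03), named here after its values were seen. In inhibitory neurons *Adamts2* was called higher, with 51 and 131 UMIs.

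Of 10 measured ligands and partners of the receptors in excitatory neurons, 3 were called lower and none higher. *App* was at 463 and 483 CPM, and *Ephb2* at 61.5 and 72.0 CPM. The 3 were *Apoe* (135 and 82.5 CPM, log2 ratio -0.72), *Clu* (103 and 58.6 CPM, log2 ratio -0.82) and *Selenop* (6.13 and 3.34 CPM, log2 ratio -0.88). The same 3 were called lower in inhibitory neurons, with log2 ratios of -0.76, -0.73 and -0.71. *Apoe* and *Clu* are made chiefly by glia. In the same excitatory nuclei the 6 choroid plexus markers summed to 257 CPM in PS19 and 129 CPM in PZKO, with 2 of them at 10 CPM or more. *Htr2c*, which is on that list, was also a leading gene of the excitatory sub-cluster led by *Unc13c* and *Rnf152*. The sum therefore need not be of foreign RNA alone. The 7 oligodendrocyte markers summed to 278 and 236 CPM. The part of free RNA in these genes was not tested.

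Among the 29 genes listed as acting with *Dab1*, which include kinases, adaptors and other proteins, none was called higher in excitatory neurons and 1 lower. Among those with most UMIs were *Cdh2* (304 and 324 CPM), *Pafah1b1* (292 and 271 CPM) and *Gsk3b*, a tau kinase (202.5 and 201.6 CPM). The gene called lower was *Cfl1*, the actin-severing cofilin, at 38.0 and 25.4 CPM (log2 ratio -0.58). In inhibitory neurons *Cfl1* and *Cdk5r1* were called lower, with log2 ratios of -0.88 and -0.68.

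None of the 9 genes of receptor and *Dab1* turnover was called in excitatory neurons, and *Cul5*, part of the ligase that removes active *Dab1*, was at 97.1 and 89.7 CPM. In inhibitory neurons *Rnf7* was called lower (log2 ratio -0.86). The 9 synaptic partners of the receptor tails had no call in either class, and *Grin2a* and *Grin2b*, subunits of the NMDA receptor, were at 1927 and 1898 CPM and at 2150 and 2043 CPM in excitatory neurons.

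Across the 15 neuronal clusters the genes were compared by the Pearson correlation of log2(CPM + 10), which is a description of 15 points that share 2 libraries and in which the Cajal-Retzius-like cluster lies far from the rest for *Reln*. The genes most like *Reln* in both libraries were *Rccd1* (r = 0.89 in PS19 and 0.87 in PZKO), *Utrn* (0.88 and 0.87), *Cep170* (0.93 and 0.87), *Gusb* (0.88 and 0.87) and *Galnt2* (0.88 and 0.87). Among those most like *Dab1* were *3110039M20Rik* (0.92 and 0.93) and *Gm34304* (0.94 and 0.91). Those most like *Lrp8* were *Rnf216*, *Nectin2* and *Fbxo30*, with r from 0.87 to 0.93, and those most like *Vldlr* were *Prlr*, *Tmem132e* and *Slco5a1*, with r from 0.73 to 0.88. Between the 4 genes, *Reln* and *Lrp8* had r = 0.61 and 0.69, *Lrp8* and *Dab1* -0.64 and -0.77, and *Reln* and *Dab1* -0.38 in both libraries.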

How the data were processed

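The authors counted unique molecular identifiers per gene and nucleus from 10x Genomics 3′ libraries on the mm10 reference. The submitters' processing notes name Cell Ranger 7.0.1 and Seurat, and the headers of the matrices name Cell Ranger 8.0.1. The deposited values are raw counts, and the ambient correction and doublet removal of the methods are not part of them. Nuclei were kept from 600 UMIs, 300 genes and up to 5% of mitochondrial UMIs, and the highest Scrublet scores (0.8% per 1000 nuclei) were removed. Clustering used scanpy 1.11.5 (2000 variable genes without the 4 genes and their pathway, 30 components, 20 neighbours, leidenalg 0.10.2, resolution 1, no integration). Names came from marker lists, with thresholds set after the clusters were seen (a score of at least 0.45, and 0.8 for subtypes, with 3 markers detected). Other clusters carry their leading genes. Inhibitory and excitatory nuclei were clustered again, a step added after the data were seen.

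UMIs were summed per class and library and scaled to CPM. Intervals are exact (Poisson for levels, Clopper-Pearson for shares and for the log2 ratio) at 95%. The ratio and its interval were run on simulated Poisson sums, which follow the counting model that the interval assumes. These sums have no UMIs concentrated in few nuclei, so coverage for such counts was not tested. Genotypes were not tested against each other, as each has 1 library, and edgeR 4.0.16 and DESeq2 1.42.0 supplied scaling factors only. Gene positions are from GENCODE M21. The genes named are the 4 genes, in each pathway role up to 4 with most UMIs and those called, and the 5 (*Reln*) or 3 most alike genes among those with at least 200 UMIs. Some genes that this rule names are not reported here. The 4 genes and the lists were chosen with earlier results of these data known.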

Additional observations from a re-analysis of the deposited data

Results flagged for a closer look

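The *Reln* log2 ratio was -1.66 (-2.88 to -0.52) in the excitatory cluster led by *Vwc2l* and *Sntb1*, while 7 other neuronal clusters had an interval above 0 and a log2 ratio of at least 0.5 in the opposite direction. The difference between these clusters was not tested. The PS19 value was 19 UMIs in 94 nuclei, 14 of them in 1 nucleus, and the PZKO value 11 UMIs in 138 nuclei. The PS19 level (9.30 CPM) was within the range of glia given above, and the PZKO level (2.94 CPM) was below it.

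In mural cells the *Reln* log2 ratio was -5.52 (-7.42 to -4.14), while excitatory neurons and astrocytes had ratios of 1.68 and 0.68, and this difference was not tested. It rested on 2 PS19 nuclei with 73 and 65 *Reln* UMIs, 90 and 86 *Dab1* UMIs, 5 *Trp73* UMIs each, and 17 and 16 UMIs of the mural markers. Without them 5 *Reln* UMIs remained in PS19 and 4 in PZKO, and *Dab1* went from 230 to 54 UMIs in PS19. They had 33199 and 34243 UMIs in all.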

How the results depend on the processing

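The excess of *Reln* in PZKO excitatory neurons (log2 ratio 1.68) kept its direction under every alternative run. It was 1.31 as a mean over nuclei, 1.15 with the mean mix of clusters, 1.89 with no filter, 1.85 with no doublet removal, 1.83 with each library clustered on its own and 4.90 after subtraction of an ambient profile. The subtraction left 0.675 CPM in PS19 and 20.2 CPM in PZKO. The profile was the sum of all kept nuclei of a library, so it includes the *Reln* of Cajal-Retzius-like cells and interneurons. PS19 CA3-like and CA1-like nuclei held 1.33 and 1.67 CPM before any subtraction. The amount removed may therefore be too large, and 4.90 does not give the size of the difference. In inhibitory neurons (0.18) the ratio was 0.23 with DESeq2 size factors, 0.24 as a mean over nuclei, 0.24 with libraries clustered on their own and 0.31 with the mean mix. In Cajal-Retzius-like nuclei (0.01) it was 0.14 with edgeR TMM factors, 0.14 with DESeq2 size factors and 0.13 after ambient subtraction. With separate clustering of the libraries no PS19 cluster was named Cajal-Retzius, so that setting gave no value. The excitatory share of neuronal *Reln* was 6.61% in PS19 and 18.4% in PZKO with no filter, and 20.7% in PZKO with no doublet removal. With separate clustering it was 9.77% in PS19, but there the neuronal total held no Cajal-Retzius class, so this share is not on the same base.

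*Vldlr* in excitatory neurons (-0.13) was -0.039 with DESeq2 size factors and -0.029 with the mean mix, *Lrp8* (0.19) was 0.27 with TMM and 0.28 with DESeq2 factors, and *Dab1* (0.07) was 0.15 with TMM, 0.16 with DESeq2 factors, 0.016 as a mean over nuclei, 0.10 without nuclei holding *Gad1*, *Gad2* or *Trp73*, 0.24 with the mean mix and 0.082 at Leiden resolution 0.5. Some ratios with an interval that spans 0 changed sign. Of these, *Reln* in the *Cdh18*/*Rai14* cluster (-0.13) was 1.27 (0.60 to 1.99) without nuclei holding *Gad1*, *Gad2* or *Trp73* and 1.42 (0.36 to 2.64) without the 5 richest nuclei. Among the other results, those that turned in direction were *Vldlr* in inhibitory neurons under the stricter filter (0.0049), *Reln* in dentate granule-like nuclei without nuclei holding those UMIs (-0.39) and without the 5 richest nuclei (-0.22), and *Reln* in the *Vwc2l*/*Sntb1* cluster under the stricter filter (0.20) and without nuclei holding those UMIs (0.92). The causes were not tested. With genes of at least 20 UMIs, 4 instead of 1 pathway genes were called higher in inhibitory neurons, and at a log2 ratio of at least 1 none was called lower in either class or higher in inhibitory neurons. No paired analysis was possible because each genotype is 1 library, and for the same reason no replicate could be left out.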
